A study of Mus musculus with 3 samples.

Results

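Rod bipolar cells of the mouse retina were examined as 2384 of 25237 kept barcodes, with 868 in the library from F4L5.13-treated Tspan12 KO mice, 709 in the Tspan12 KO library and 807 in the wild-type (WT) library. Members were chosen by read counts: a barcode was taken as a rod bipolar cell when it had at least 2 reads of Trpm1, at least 2 reads in 3 or more of Prkca, Sebox, Car8, Tpbg, Vstm2b and Il1rap, and fewer than 4 of the Müller glia genes Rlbp1, Slc1a3, Aqp4, Kcnj10 and Car14 at 3 or more reads. Kept barcodes had at least 500 genes detected and at most 20% of reads on mitochondrial genes. All mice were at postnatal day 26. The treated KO mice, of strain Tspan12tm1.2Hjug like the untreated KO mice, had received F4L5.13 intraperitoneally at 10 mg/kg on postnatal days 6, 9 and 12, and 4 mg/kg every 3 days after that. Each group was 1 library, the labels do not say how many animals it came from, and so no difference below has a replicate check and no p-value is given. All intervals are 95% intervals that cover counting error only.

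Rod bipolar cells are the ON bipolar neurons that receive rod signals. Glutamate from rods acts on the receptor mGluR6, whose G protein cascade holds the cation channel TRPM1 closed, and light lets the channel open. The cells pass the signal to AII amacrine cells in the inner retina. TSPAN12 is a partner of the Norrin receptor FZD4, which with LRP5 drives the growth of retinal vessels and of their barrier. F4L5.13 is an antibody-based agonist of FZD4 and LRP5. Genes of the cellular response to low oxygen are controlled by hypoxia-inducible factors, which bind the letters ACGTG.

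The promoters of 4 genes of that response that were higher in KO rod bipolar cells are shown because they carry these letters. Each is the RefSeq window from 250 bases before to 50 bases after a gene start on the GRCm38.p6 build, printed on the gene's strand, with ACGTG or its reverse complement CACGT in capitals. Ldha lies at chr7:46845554-46845853 on the plus strand, Pgk1 at chrX:106186850-106187149 on the plus strand, Bnip3 at chr7:138909457-138909756 on the minus strand and Egln3 at chr12:54203825-54204124 on the minus strand.
Ldha: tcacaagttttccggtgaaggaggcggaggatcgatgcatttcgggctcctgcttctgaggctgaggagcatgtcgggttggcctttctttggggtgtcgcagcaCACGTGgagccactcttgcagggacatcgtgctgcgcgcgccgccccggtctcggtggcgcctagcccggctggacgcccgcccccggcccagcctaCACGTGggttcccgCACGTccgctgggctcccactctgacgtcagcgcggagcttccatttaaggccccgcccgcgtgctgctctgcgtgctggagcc
Pgk1: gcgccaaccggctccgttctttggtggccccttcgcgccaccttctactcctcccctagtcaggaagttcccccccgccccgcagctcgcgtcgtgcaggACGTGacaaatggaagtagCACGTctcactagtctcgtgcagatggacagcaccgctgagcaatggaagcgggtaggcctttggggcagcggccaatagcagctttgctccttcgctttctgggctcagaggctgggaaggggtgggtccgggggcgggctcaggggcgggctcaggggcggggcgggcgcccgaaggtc
Bnip3: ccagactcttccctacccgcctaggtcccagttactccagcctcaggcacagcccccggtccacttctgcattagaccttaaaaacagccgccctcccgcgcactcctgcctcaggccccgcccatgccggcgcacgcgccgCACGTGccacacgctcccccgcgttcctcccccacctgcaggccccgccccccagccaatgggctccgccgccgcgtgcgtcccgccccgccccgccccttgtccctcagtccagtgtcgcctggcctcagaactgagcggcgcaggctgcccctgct
Egln3: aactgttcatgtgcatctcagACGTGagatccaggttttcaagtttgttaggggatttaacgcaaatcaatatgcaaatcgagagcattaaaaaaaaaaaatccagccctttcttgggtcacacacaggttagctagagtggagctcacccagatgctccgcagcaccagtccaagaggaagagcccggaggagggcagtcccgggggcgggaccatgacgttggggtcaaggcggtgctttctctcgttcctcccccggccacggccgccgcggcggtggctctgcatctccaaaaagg
Both strands were searched, and where CACGTG occurs 2 matches overlap. A match was present in 12 of the 18 hypoxia response genes with a promoter entry that were higher in KO cells (66.7%), in 21 of all 29 such genes of the list (72.4%), in 31.0% of the genes compared in rod bipolar cells and in 21.8% of all 27025 genes with a promoter entry. The same letters were in 3 of the 6 genes used to find the cells that have an entry (50.0%), Trpm1, Tpbg and Il1rap. They were in 2 of 13 genes of the mGluR6 cascade (15.4%). This motif was added to the search after the expression values were known. Among the genes used to find the cells, the promoter of Trpm1 is shown for its match to GGATTA, the letters bound by OTX2 and CRX, in capitals in the window chr7:64153585-64153884 on the plus strand.
Trpm1: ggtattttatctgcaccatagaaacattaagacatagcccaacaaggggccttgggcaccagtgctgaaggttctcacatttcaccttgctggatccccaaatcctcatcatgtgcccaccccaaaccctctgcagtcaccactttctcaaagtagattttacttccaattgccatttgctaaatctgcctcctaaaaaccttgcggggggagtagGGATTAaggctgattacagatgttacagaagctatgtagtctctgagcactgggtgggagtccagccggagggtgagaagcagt
GGATTA or TAATCC was found in 1 of the 6 cell-defining genes with an entry, in 4 of 13 genes of the mGluR6 cascade (30.8%) and in 8.14% of all genes. The letters CATATG, an E-box of the bipolar factor BHLHE23, were in none of these 6 or 13 genes and in 4.48% of all genes. A second window of Ldha, not printed, held no ACGTG or CACGT, and a second window of Trpm1 held no GGATTA or TAATCC. A match is a description of the letters only.

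Of the genes that chose the cells, Vstm2b differed most between libraries, and the 6 other than Trpm1 were all lowest in KO. Trpm1, the cation channel, was at 2582, 2445 and 2416 CPM (the reads of a gene summed over the cells, scaled by all reads of those cells) in treated KO, KO and WT cells. Prkca, which encodes the protein kinase C isoform used to stain these cells, was at 1518, 1262 and 1382, and the homeobox gene Sebox was at 835, 819 and 988 CPM in the same order. Tpbg, which encodes the membrane protein trophoblast glycoprotein, was at 226, 180 and 253 CPM, with at least 2 reads in 69.8%, 57.5% and 68.5% of the cells. These values describe the selection and test nothing.

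The label held for genes that the selection did not use. Pcp2, a regulator of the G protein Go and a classical rod bipolar marker, was at 8199, 7835 and 7680 CPM in treated KO, KO and WT rod bipolar cells, against 1752, 1492 and 1888 in other ON bipolar barcodes. Those barcodes had Trpm1 and Grm6 but at most 1 of the 6 other genes, and numbered 579, 450 and 837. Vsx1, a transcription factor of cone bipolar cells, ran the other way, at 38.3, 49.3 and 34.5 CPM against 299.8, 298 and 282. Grm6, which both populations use, was at 250.3, 269.6 and 266 in rod bipolar cells.

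**Figure D1:**
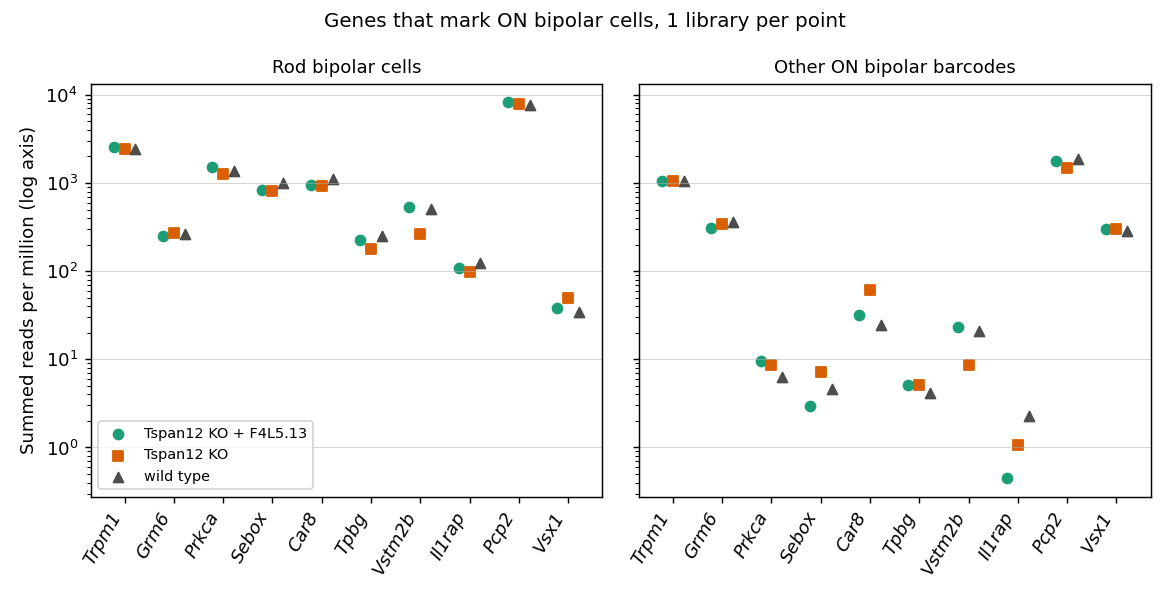
CPM (log axis) of 10 genes in rod bipolar cells (left) and in other ON bipolar barcodes (right), with 1 point for each library. Prkca, Sebox, Car8, Tpbg, Vstm2b and Il1rap helped choose the cells, while Pcp2 (8199, 7835 and 7680 in treated KO, KO and WT rod bipolar cells) and Vsx1 did not, and Vstm2b lies lower in the KO library on both sides.

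Vstm2b, which encodes an immunoglobulin-domain membrane protein, was at 529 CPM in treated KO cells, 264 in KO cells and 511 in WT cells. KO cells stood lowest, with a KO-to-WT ratio of 0.515 (0.477 to 0.557), while treated KO and WT cells lay side by side. With each cell thinned to 5000 reads, 86.5%, 69.4% and 85.5% of treated KO, KO and WT rod bipolar cells had a read of it, against 2.98%, 0.857% and 2.17% of Müller barcodes, whose median depths before thinning were 25898.5, 29079 and 20034 reads. It was lower in KO in the other ON bipolar barcodes too, at 23.0, 8.53 and 20.7 CPM. Since Vstm2b helped select the cells, its values are given as a description. Cells with the minimum of 3 of the 6 genes numbered 67 (7.72%), 105 (14.8%) and 70 (8.67%), and cells with all 6 numbered 264, 110 and 228 in treated KO, KO and WT.

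The edge of the rule held cells of another make-up. Treated KO, KO and WT cells with 3 of the 6 genes had 2924, 4268 and 3328 CPM of Pcp2, and those left out with 2 of the 6 had 2262, 2113 and 2435. Prkca was at 215, 477 and 235 CPM just inside the rule and at 61.3, 75.8 and 63.1 just outside it. Median depth just inside was 22822, 10435 and 21939 reads, so that in treated KO and WT these cells were deeper than most. The Müller glia condition left out 55, 27 and 38 barcodes.

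Rod bipolar cells were 9.73%, 6.92% and 13.3% of kept barcodes in the treated KO, KO and WT libraries. Rods made up 4187, 4841 and 613 barcodes, and rods had been depleted with beads against CD73 before capture, so these shares depend on how many rods were left. Of kept barcodes that were not rods, rod bipolar cells were 18.4% (17.3 to 19.5), 13.1% (12.2 to 14.1) and 14.8% (13.8 to 15.7). Per 100 Müller barcodes there were 64.6, 46.7 and 45.0 of them, and per 100 other ON bipolar barcodes 149.9, 157.6 and 96.4. The order of KO and WT thus turned with the denominator, and no statement on cell number is drawn. Median depth per cell was 13256, 10762 and 11521 reads and 2767, 2552 and 2649 genes. The cells of a library summed to 13759907, 9832418 and 11117419 reads, and no barcode was shared by rod bipolar cells of different libraries.

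Some members carried transcripts of other cells. Cells with over 2 times the median depth of their library numbered 73, 79 and 68 in treated KO, KO and WT and held 23.9%, 31.9% and 22.8% of the reads. The 13 rod markers had the largest sum, at 3653, 3568 and 4540 CPM, and at 3505, 3773 and 3257 without the deep cells. At least 3 of them had 5 or more reads in 228, 174 and 182 cells. The 9 cone markers summed to 854, 805 and 1760 CPM. The 16 cone bipolar markers summed to 665, 708 and 649, with Col11a1 at 0 in treated KO cells. The 9 amacrine markers, each with reads in all 3 libraries, summed to 140, 356 and 16.8 CPM, and to 25.98, 55.4 and 16.5 without the deep cells. Of 12 endothelial markers, 12, 8 and 12 had reads in treated KO, KO and WT cells, with Cldn5, Cdh5, Tek and Slco1a4 at 0 in KO, and they summed to 38.4, 44.2 and 191 CPM, or to 22.5, 22.7 and 44.9 without the deep cells. The 10 microglia markers summed to 7.12, 77.5 and 56.8, with Tmem119 at 0 in treated KO cells, and the 13 Müller markers summed to 599, 637 and 665 with none at 0. Ratios are therefore given for all cells and, where it matters, without the deep ones.

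Tspan12 was low in rod bipolar cells, at 1.16, 3.46 and 2.16 CPM in treated KO, KO and WT, with a limit that 3 molecules would set of 0.690, 0.842 and 0.736. In Müller barcodes it was at 23.6, 27.4 and 41.4. The tables count 3′ tags, the labels do not give the deleted part of the gene, and these values do not check the labels. The ligand Ndp and the receptor genes Fzd4 and Lrp5 were also at under 5 CPM in these cells.

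The comparison of KO with WT asks what loss of Tspan12 is accompanied by in these neurons. A gene was compared when the higher library had at least 30 molecules, estimated from the reads as described in the processing, which 10668 genes did. Rod bipolar cells of the KO library had higher levels of glycolytic and other hypoxia response genes, of metallothioneins and of several immediate-early genes, while genes of the mGluR6 cascade stood near the WT level. By a ratio of at least 2 with the nearer bound beyond 1.5, 263 genes (2.47%) were higher in KO and 86 (0.806%) lower. By the looser rule used for lists, a ratio of at least 1.5 with an interval that leaves out 1, 830 (7.78%) were higher and 417 (3.91%) lower. The median gene differed by 0.03 on the log2 scale.

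Of the 33 hypoxia response genes listed, 32 were in the tables and 31 were compared, and 22 were higher in KO than in WT by the looser rule, with none lower. Their median log2 ratio was 0.97, against 0.03 over all genes. Without the deep cells 22 of 29 were higher, with a median of 0.88. In treated KO cells against KO cells none of 31 was higher and 18 were lower, with a median of -0.71, where 4.29% of all 10778 genes compared were higher and 6.3% lower and the median gene stood at 0.00. Both comparisons use the KO library. Against WT, treated KO cells had 3 of 29 genes higher (Ndrg1, Pfkfb3 and Ak4) and 1 lower (Pgk1), with a median of 0.15, where 3.49% of 10827 genes were higher, 2.47% lower and the median gene was at 0.04.

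Transport and breakdown of glucose made up much of the list. Slc2a1, the widely expressed glucose transporter, was at 70.9 CPM in treated KO cells, 132 in KO cells and 65.3 in WT cells, a KO-to-WT ratio of 2.02 (1.74 to 2.36). Slc2a3, the neuronal glucose transporter, was at 43.3, 73.4 and 29.3 CPM, a ratio of 2.50 (2.01 to 3.14). In both transporters KO stood highest, and Slc2a3 in treated KO cells lay between KO and WT.

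The glycolytic enzymes were highest in KO as well, with treated KO on either side of WT. Aldoc, the aldolase of neural tissue, was at 205 CPM in treated KO, 600.1 in KO and 244 in WT cells, a KO-to-WT ratio of 2.45 (2.28 to 2.65). The enolase gene Eno1 was at 244, 609 and 280 CPM, a ratio of 2.18 (2.03 to 2.34). Ldha, which turns pyruvate into lactate, was at 579, 1109 and 520.2, a ratio of 2.13 (2.02 to 2.25). For each of these genes the KO cells stood apart while treated KO and WT cells lay within 1.2-fold of each other. Pgk1, phosphoglycerate kinase, was at 31.7, 89.2 and 49.6 CPM and was the gene of the list that treated KO cells had lower than WT, with a treated-to-WT ratio of 0.639. Aldoa missed the rule at a ratio of 1.40 (1.36 to 1.45), with 1890.3, 2709 and 1929 CPM, and Gapdh and Pgam1 also missed it. Near-identical copies of Eno1, Gapdh, Pgam1, Pgk1 and Ldha exist in the genome, and the labels do not say how reads shared by copies were counted.

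Genes that turn pyruvate away from mitochondria or act on them were among those higher in KO. Pdk1, the kinase that blocks pyruvate dehydrogenase, was at 35.4, 68.4 and 31.8 CPM in treated KO, KO and WT cells. Bnip3, a mitophagy receptor, was at 69.3, 182 and 67.8, a KO-to-WT ratio of 2.68 (2.33 to 3.10). Higd1a, an inner mitochondrial membrane protein, was at 137, 327 and 117, a ratio of 2.80 (2.52 to 3.13). All 3 were within 1.2-fold of WT in the treated library.

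The oxygen sensors were represented by Egln1 and Egln3, prolyl hydroxylases that mark hypoxia-inducible factors for destruction and are themselves their targets. Egln1 was at 62.1, 150.0 and 54.1 CPM in treated KO, KO and WT cells, a KO-to-WT ratio of 2.77 (2.36 to 3.26). Egln3 was at 0.291, 9.36 and 0, at least 12.7-fold higher in KO than in WT against a limit of 3 molecules in the WT library. Only 2 treated KO cells had a read of Egln3, against 43 KO cells and no WT cell.

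Vegfa, the vessel growth factor, had another pattern. It was at 130.3 CPM in treated KO cells, 139 in KO cells and 91.7 in WT cells, with a KO-to-WT ratio of 1.52 (1.32 to 1.74) and a treated-to-KO ratio of 0.937 (0.829 to 1.06). Treated KO and KO cells were thus close and both stood above WT, although the treated-to-WT ratio of 1.42 missed the rule, which the ratio of 1.59 without the deep cells passed. In Müller barcodes Vegfa was at 221, 414 and 149.7 CPM, where treated KO lay between KO and WT.

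**Figure D2:**
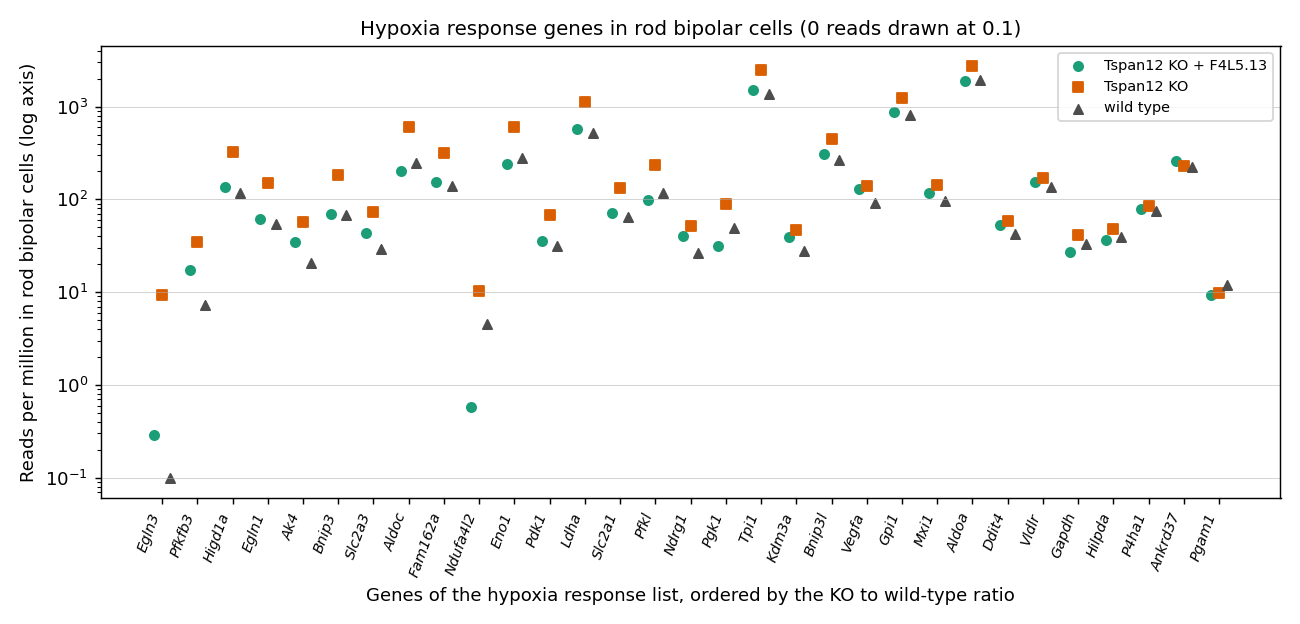
CPM (log axis) in rod bipolar cells for the 31 hypoxia response genes compared between KO and WT, ordered from the highest to the lowest KO-to-WT ratio, with 1 point for each library. KO points lie above treated KO and WT points for most genes, as for Ldha at 579, 1109 and 520.2 in treated KO, KO and WT, while Vegfa in treated KO lies near KO.

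As a sum over the list, the difference was spread over the cells. With each cell thinned to 5000 reads, the genes of the hypoxia list summed to a median of 34 reads per cell in treated KO, 59 in KO and 32 in WT. The middle range from the first to the third quartile was 28 to 42 in treated KO cells, 50 to 69 in KO cells and 25.25 to 40 in WT cells. The quartile ranges of KO and of the other libraries did not overlap, although the 5th percentile of KO cells, 35, lay below the 95th percentiles of 55 in treated KO and 52 in WT. Those of metallothioneins did not overlap either, at 2 to 9, 10 to 26 and 2 to 9 reads. Those of nuclear genes of oxidative phosphorylation did, at 74 to 97, 70 to 92 and 75 to 98. So did those of ribbon and release genes, at 49 to 63, 50 to 65 and 50 to 63.75. No such comparison was made over all genes. The sum is weighted to genes with many reads. Among thinned cells, a read of Ldha was in 79.3%, 96.4% and 75.8% and a read of Bnip3 in 21.2%, 46.6% and 21.6%. Pgk1 had a read in 13.5%, 33.6% and 20.0% and Egln3 in 0%, 3.17% and 0%. Thinning left out 8, 16 and 1 cells with fewer reads.

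**Figure D3:**
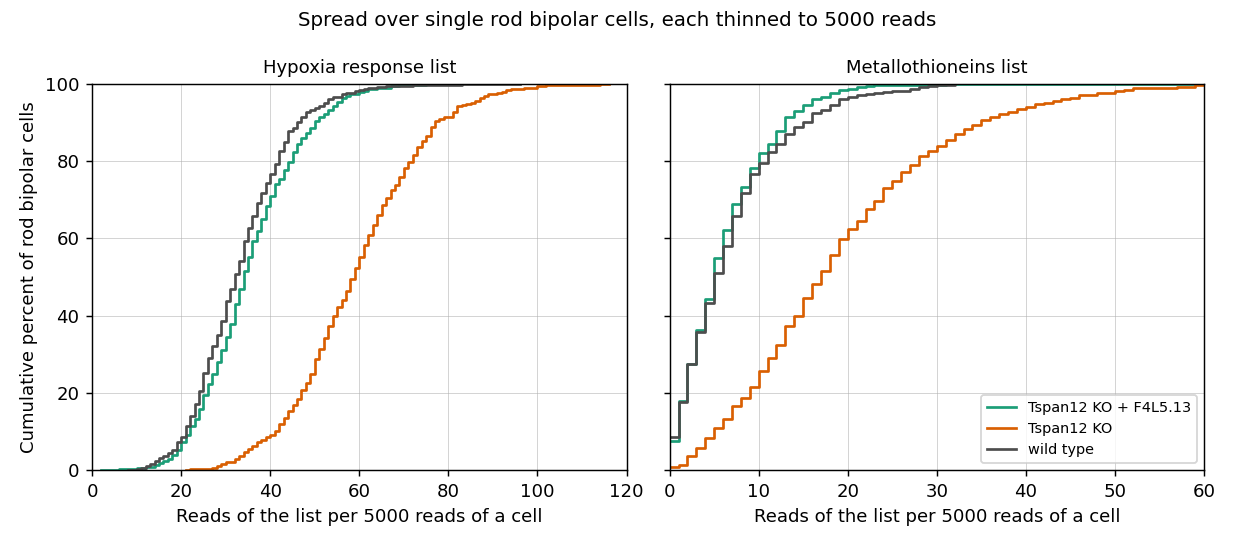
Cumulative percent of rod bipolar cells by the number of reads of the hypoxia response list (left) and of the 3 metallothioneins (right) among 5000 reads drawn from each cell. The whole KO curve lies to the right in both panels, with medians of 34, 59 and 32 hypoxia reads and of 5, 17 and 5 metallothionein reads in treated KO, KO and WT.

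Set beside other cells of the same libraries, the median KO-to-WT log2 ratio of the hypoxia list was 0.97 in rod bipolar cells, 0.75 in the other ON bipolar barcodes (19 of 30 higher, none lower, against 5.34% of all genes higher there) and 0.61 in Müller barcodes (16 of 32 higher, against 7.75% of all genes). In rods it was 0.33 (11 of 31 higher and 2 lower, against 20.6% and 8.08% of all genes) and in amacrine barcodes 0.21 (3 of 28 higher and 4 lower, against 14.4% and 6.71%), but these classes held 613 rods and 125 amacrine barcodes in WT and their median gene was itself at 0.20 and 0.19. With 1 library a group the differences between classes could not be tested. Ndufa4l2, an oxygen-regulated relative of a respiratory subunit, was at 149, 1399.6 and 90.5 CPM in treated KO, KO and WT Müller barcodes, against 0.581, 10.3 and 4.59 in rod bipolar cells. Whether RNA free in the suspension adds to that low level in rod bipolar cells was not tested.

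Among respiratory chain genes, Ndufa4 was lower in KO and Cox4i2 higher. Of 24 nuclear genes of oxidative phosphorylation, none was higher in KO and 1 was lower (7.78% and 3.91% of all genes), with a median log2 ratio of -0.06. That gene, Ndufa4, a subunit of cytochrome c oxidase, was at 2147 CPM in treated KO, 1386 in KO and 2328 in WT cells, a KO-to-WT ratio of 0.595 (0.575 to 0.616) and a treated-to-KO ratio of 1.55 (1.496 to 1.60). Cox4i2, the oxygen-regulated form of subunit IV at chr2:152753916-152765039, was outside the lists and was singled out after its values were seen. It was at 9.59, 85.4 and 8.37 CPM, a KO-to-WT ratio of 10.2 (7.15 to 15.0), and 19.2 without the deep cells. Müller barcodes hold far more of it, at 620, 1191 and 808 CPM with a ratio of 1.47. In rod bipolar cells the 13 Müller markers summed to 599, 637 and 665 CPM in treated KO, KO and WT. Of these markers Apoe was highest in KO, at 120.5, 216 and 149, and Glul lowest in KO, at 110, 71.7 and 108. The part of Müller RNA in the Cox4i2 values was not tested. Cox4i1, the common form of subunit IV, was at 1633, 1785 and 1631 CPM. None of the 9 mitochondrially encoded genes compared was past the rule, with a median of -0.27, and mitochondrial reads were 3.84%, 3.30% and 4.30% of the cells' reads.

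Metallothioneins, small zinc- and copper-binding proteins, were higher in KO for all 3 genes of the list, where 7.78% of all genes were higher. Mt1 was at 844, 2686 and 939.7 CPM in treated KO, KO and WT rod bipolar cells, a KO-to-WT ratio of 2.86 (2.75 to 2.97). Mt2 was at 198, 518 and 190.4, a ratio of 2.72 (2.50 to 2.96). Mt3, the form known from neurons, was at 95.1, 162 and 102, a ratio of 1.58 (1.39 to 1.80). All 3 were lower in treated KO than in KO cells, with a median log2 ratio of -1.39, where 6.3% of all genes were lower. None was past the rule between treated KO and WT. The KO-to-WT median was 1.44 here, 1.91 in other ON bipolar, 2.07 in Müller and 1.15 in amacrine barcodes. All 3 genes were higher in KO in those 3 classes, against 5.34%, 7.75% and 14.4% of all genes. In rods 2 of 3 were, with a median of 1.16, against 20.6% of all genes. Müller barcodes had more Mt1, at 2789, 7200.1 and 1720 CPM, and there treated KO stood above WT, whereas in rod bipolar cells it did not. The 13 Müller markers summed in rod bipolar cells to 599, 637 and 665 CPM, and the part of Müller RNA in the Mt1 values was not tested.

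Immediate-early genes, which neurons and glia switch on within minutes, including during dissociation, were higher in KO for 6 of 12 (Fos, Fosb, Junb, Egr1, Dusp1 and Atf3), with a median log2 ratio of 0.61 and none lower, where 7.78% of all genes were higher. Egr1 was at 102, 215 and 80.1 CPM in treated KO, KO and WT cells, a KO-to-WT ratio of 2.69 (2.36 to 3.07). Fos was at 223, 334 and 202, a ratio of 1.66 (1.52 to 1.81). In treated KO cells Junb, Jund, Egr1, Dusp1 and Atf3 were lower than in KO, where 6.3% of all genes were lower, and none of the 12 was past the rule against WT. In other ON bipolar barcodes 6 of 13 were higher in KO and 0 lower (median 0.53), where 5.34% of all genes were higher. There treated KO had 4 of 14 higher than WT and 0 lower (median 0.51), against 1.84% of all genes higher. Treated KO against KO had 1 of 13 higher and 3 lower there (median -0.14), against 5.49% and 6.02% of all genes. For KO against WT, Müller barcodes had 7 of 19 higher and 0 lower (median 0.21), against 7.75% of all genes. Fos itself was lowest in KO in Müller barcodes, at 4006, 3185 and 3581 CPM. Rods had 3 of 16 higher in KO than in WT and 8 lower, against 20.6% and 8.08% of all genes. Amacrine barcodes had 3 of 18 higher and 4 lower, against 14.4% and 6.71%. How long each retina was handled was not given in the labels, and its part in these values was not tested.

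Genes of the mGluR6 cascade differed little between libraries. The list includes Trpm1, which the selection required, so its count and median draw in part on the selection. None of the 15 compared was past the looser rule between KO and WT (median log2 ratio 0.02) or between treated KO and KO (0.07). Of the 15, 1, Ric8b, a chaperone of G protein alpha subunits, was higher in treated KO than in WT. Of all genes, 7.78% were higher and 3.91% lower in KO than in WT. The shares were 4.29% and 6.3% for treated KO against KO, and 3.49% and 2.47% for treated KO against WT. In a list of 15 genes these counts are near such shares. Gnao1, the Go alpha subunit, was at 1214, 1156 and 1137 CPM in treated KO, KO and WT cells. Gnb3 and Gng13, its beta and gamma partners, were at 2092, 2066 and 1978 and at 6167, 6129 and 6415. Gpr179, the receptor that anchors the deactivating RGS proteins, was at 514, 467 and 530.2, and Nyx, which encodes nyctalopin, at 28.2, 34.5 and 29.4. Rgs11, the RGS protein that ends the G protein signal, had the highest KO-to-WT ratio of the list at 1.35 (1.25 to 1.47), short of the rule. Per cell thinned to 5000 reads the cascade summed to medians of 77.5, 78 and 76 reads.

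None of 15 bipolar transcription factors was past the rule between KO and WT, with Otx2 at 456, 402 and 459.9 and Bhlhe23 at 302, 282 and 305 CPM in treated KO, KO and WT cells. Without the deep cells 1 of the 15 was lower in KO than in WT, and 1 was higher in treated KO than in KO. Foxp1 was lower in treated KO than in WT, at 19.3 against 34.2 CPM, a ratio of 0.563 that was 0.685 and short of the rule without the deep cells. None of 13 other bipolar markers was past the rule, with a median KO-to-WT log2 ratio of -0.16. Of all genes, 7.78% were higher and 3.91% lower in KO than in WT, and 2.47% lower in treated KO than in WT. In lists this short the counts are near those shares.

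At the output synapse, 2 of 28 ribbon and release genes were higher in KO, a share near the 7.78% of all genes. Unc13a, a vesicle priming protein, was at 44.5, 62.6 and 31.8 CPM in treated KO, KO and WT cells, a KO-to-WT ratio of 1.97 (1.58 to 2.46) and 1.99 without the deep cells. Rims1, an active zone protein, was at 14.8, 22.6 and 14.1, a ratio of 1.60 that was 1.15 without the deep cells. Ctbp2, which encodes the ribbon protein RIBEYE, was at 251, 236 and 233, and Cplx3, the complexin of ribbon synapses, at 1923, 1983 and 1995. Of 11 GABA and glycine receptor genes, Gabbr1 and Gabbr2, which form the GABA-B receptor, were higher in KO. Gabbr1 was at 55.4, 76.2 and 49.0 CPM, a ratio of 1.55 (1.29 to 1.87) with the call kept without the deep cells, and Gabbr2 at 18.8, 28.8 and 14.9, where the ratio without the deep cells was 1.00. Gabrr1, a subunit of the GABA-C receptor that shapes rod bipolar output, was at 427, 391 and 455.

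Other lists rested on the deep cells. Of 16 potassium, HCN and calcium handling genes 8 were higher in KO, with a median log2 ratio of 0.62, beside 7.78% of all genes. Without the deep cells 1 of 9 was, a count near that all-cell share, with a median of 0.00. Atp1b1, a sodium pump subunit, was at 34.3, 99.9 and 5.49 CPM in treated KO, KO and WT cells, an order shared with the amacrine markers, and at 1675, 1290.1 and 1634 in amacrine barcodes. Hcn2 remained past the rule without the deep cells, with a ratio of 2.37 and levels of 12.4, 20.3 and 9.26 over all cells. Of 23 adhesion and wiring genes 5 were higher in KO, Nlgn1 and Pcdh9 among them, beside 7.78% of all genes, and 1, the cell-defining Vstm2b, was lower with and without the deep cells. Of those higher, only Cadm2, a cell adhesion molecule, was so without the deep cells, at a ratio of 1.63. Marcks, a protein kinase C substrate, was at 40.2, 83.2 and 36.9, and its ratio of 2.26 was 0.81 without the deep cells.

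**Figure D4:**
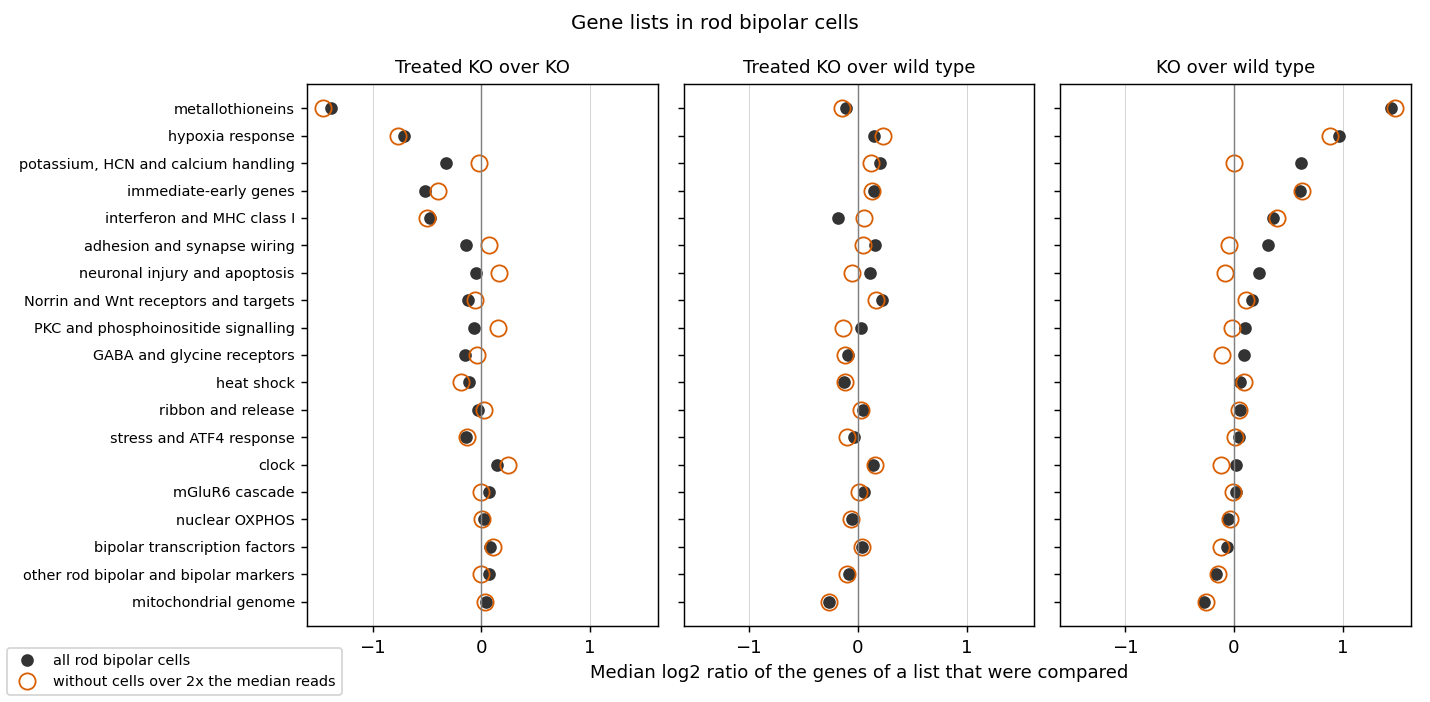
Median log2 ratio of the compared genes of 19 lists for treated KO over KO, treated KO over WT and KO over WT, over all rod bipolar cells (filled) and without cells deeper than 2 times their library's median (open). The hypoxia list is at -0.71, 0.15 and 0.97 and metallothioneins at -1.39, -0.10 and 1.44, and the potassium, HCN and calcium list moves to 0.00 in KO over WT without the deep cells.

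The stress, immune, injury, Wnt and clock lists held few genes past the rule, beside 7.78% of all genes higher and 3.91% lower, and several of these counts are near that background. Of 14 stress genes Atf3 and Gadd45b were higher in KO and Gadd45a lower, and Gadd45b, a growth arrest gene, was at 52.5, 117 and 60.8 CPM in treated KO, KO and WT cells. Hspa5, the chaperone of the endoplasmic reticulum, was at 238, 322 and 335. Of 7 interferon and MHC class I genes Irf9 and H2-K1 were higher in KO and Ifitm3 and B2m lower, and H2-K1, an MHC class I chain, was at 14.0, 29.3 and 13.1, a KO-to-WT ratio of 2.23 (1.59 to 3.16). Ifitm3 was at 1.45, 2.44 and 28.1, the order of the endothelial markers. Of 11 heat shock genes Hsph1 was higher and Hspa1a lower, of 10 injury genes 4 were higher, Casp9, Gap43 and Stmn2 among them, of 10 Norrin and Wnt genes Dkk3, which is also a Müller marker, was higher, and of 17 clock genes Ciart and Bhlhe40 were higher. Without the deep cells 3 of 14 stress genes were higher in KO and 1 lower. Hsph1, Ciart and Gadd45a were then short of the rule, at ratios of 1.06, 1.13 and 0.667, and Hspa1a, Dkk3, Irf9, Ifitm3, B2m and Stmn2 had too few reads to be compared.

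Casp9, the initiator caspase of the mitochondrial pathway, was at 13.4, 25.9 and 12.8 CPM in treated KO, KO and WT cells, a KO-to-WT ratio of 2.03 (1.43 to 2.91) that was 2.35 without the deep cells. Stmn2, a neuronal growth protein, was at 16.7, 22.4 and 1.98, with treated KO near KO. The 8 ganglion cell markers summed to 128, 107 and 15.7 CPM in the same cells, with Pou4f2 at 0 in WT, and to 11.6, 10.3 and 12.9 without the deep cells. Their part in the Stmn2 value was not tested.

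The 12 genes with the highest KO-to-WT ratios were all at low level. Of these 12, 8 stayed past the 2-fold rule without the deep cells, 5 without cells that held 3 markers of another class, and 4 after thinning. Serpina3n, a serine protease inhibitor of reactive tissue, was at 1.45, 22.8 and 0 CPM in treated KO, KO and WT cells, at least 30.9-fold higher in KO than in WT, and came from 8, 47 and 0 cells. A2m, a broad protease inhibitor, was at 3.92, 23.1 and 1.26, from 24, 97 and 6 cells. Il27, a subunit of the cytokine interleukin 27, was at 0.945, 19.0 and 0.360, from 6, 67 and 2 cells. All 3 were higher in KO without the deep cells too. Müller barcodes held more Serpina3n, at 25.7, 75.4 and 6.61 CPM, and more A2m, at 8.50, 46.7 and 3.65, in the same order of libraries, and their part in the rod bipolar values was not tested. Il27 had no read in the other ON bipolar barcodes and at most 0.392 CPM in Müller, rod or amacrine barcodes of any library.

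Prph, an intermediate filament of injured neurons, was at 2.11, 14.5 and 0.0899 CPM in treated KO, KO and WT cells. C3, the central complement component, was at 1.16, 8.75 and 0.899. H2-Ab1, an MHC class II chain, was at 0.0727, 10.5 and 0.360, and H2-Q7, a class Ib molecule with close paralogs, at 1.53, 13.9 and 1.35. Gap43, an axon growth protein, was at 10.3, 22.6 and 2.61. The remaining 4 of the 12 highest were Egln3, described above, Tacr3, Slc47a1 and Adgra1, at 9.36, 10.98, 13.4 and 15.5 CPM in KO. C3, H2-Ab1, H2-Q7, Prph and Tacr3 were highest in KO in other ON bipolar barcodes too. There they were at 15.2, 24.2, 10.1, 9.38 and 42.6 CPM in KO, against 6.75 or less in treated KO and WT. Without the deep cells C3, H2-Ab1, Tacr3 and Egln3 had too few reads to be compared. Of KO reads, 41.9% for C3 and 51.9% for Tacr3 were in 5 cells.

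Most of the 12 lowest KO-to-WT ratios rested on a few WT cells, and 2 of the 12, Cxcl12 and Iltifb, stayed past the rule without the deep cells. Mgp, Tm4sf1, Igfbp3, Ltbp4 and Ccdc152 had between 98.4% and 100% of their WT reads in 5 cells, and S100b and Cldn10 had 94.4% and 91.0%. Cxcl12, a chemokine of vessel-associated cells, was at 6.32, 2.64 and 35.3 CPM in treated KO, KO and WT cells, with 77.9% of the WT reads in 5 cells, while Ptprb, an endothelial phosphatase, and Slco1c1, a thyroid hormone transporter of the vessel barrier, had 88.3% and 76.2%. These genes moved with the endothelial marker sum of 38.4, 44.2 and 191. Rbp4, a retinol carrier, was at 6.03, 0.407 and 7.65 from 20, 2 and 24 cells. Iltifb stood apart, since its 98 WT cells shared the reads widely, with 15.6% in 5 cells.

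Iltifb and Il22 are near-identical interleukin 22 genes on chromosome 10, so reads may pass between them. Il22 was at 48.4 CPM in treated KO, 12.3 in KO and 37.6 in WT cells, from 261, 78 and 196 cells, and Iltifb at 18.5, 3.36 and 16.7. Treated KO and WT cells had both genes at similar levels and KO cells had less, with treated-to-KO ratios of 3.93 (2.83 to 5.58) and 5.52 (2.99 to 11.1). In Müller barcodes both were at 1.08 CPM or less.

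The comparison of treated KO with KO asks what F4L5.13 is accompanied by in cells of the same genotype. By the 2-fold rule 43 of 10778 genes (0.399%) were higher in treated KO and 206 (1.91%) lower. Of the 12 lowest treated-to-KO ratios, 9 were those of H2-Ab1, Egln3, Il27, Serpina3n, Tacr3, H2-Q7, C3, Prph and A2m, which were also among the 12 highest between KO and WT, a comparison that shares the KO library. The other 3 were Anxa2, a membrane-binding annexin, at 2.03, 20.7 and 4.14 CPM in treated KO, KO and WT cells, Vgf, a secreted neuropeptide precursor, at 3.05, 19.8 and 2.34, and Ebf1, a transcription factor, at 5.52, 33.0 and 7.02. Of KO reads of Ebf1, 53.7% were in 5 cells, and 7 of the 12 genes stayed past the rule without the deep cells.

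Among the 12 highest treated-to-KO ratios, Adamts13, the protease that cuts von Willebrand factor, was at 7.12, 0 and 0.270 CPM in treated KO, KO and WT cells, a ratio to KO of at least 8.46-fold. Adamts13 was found almost only in the treated library in the other classes too. It was at 12.7, 0.0200 and 0.0222 in Müller barcodes and at 6.50, 0 and 0 in other ON bipolar barcodes. In rods it was at 7.05, 0.0713 and 0.0774 and in amacrine barcodes at 3.58, 0.0424 and 0. R3hdml, a secreted protease inhibitor relative, was at 31.5, 11.7 and 16.1 CPM, a ratio of 2.69 (1.89 to 3.90). Ednrb, the endothelin B receptor, was at 23.1, 6.81 and 11.2 and at higher levels in the other ON bipolar barcodes, at 115, 26.5 and 45.0. Pkib, an inhibitor of protein kinase A, was at 14.8, 4.78 and 13.6, and Sel1l3, Msrb2, Zfp566, Gpn2 and Frs3 had ratios between 2.86 and 3.30. All treated KO reads of Pvalb came from 1 cell, and 6 of the 12 genes stayed past the rule without the deep cells.

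Treated KO against WT, which asks how far treated cells are from normal ones, had the fewest genes past the 2-fold rule, 42 (0.388%) higher and 67 (0.619%) lower of 10827. The 5 highest were Nrn1, Pvalb, Adamts13, Fxyd7 and Rgs4, and for all but Adamts13 every read in treated KO came from 5 cells or fewer. The 5 lowest were Tm4sf1, Ltbp4, Igfbp3, Ccdc152 and Mgp, described above as the content of a few WT cells.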

How the data were processed

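Single-cell RNA was captured with the 10x Chromium 3′ v3 kit, per the labels' protocols, after papain dissociation and bead depletion of CD73-positive photoreceptors and of dying cells. The authors deposited 1 table of estimated counts per gene (24071 genes) and barcode for each library. The submitters' processing notes name mm10 and Partek 9.0, and no aligner is named in the labels. The deposited estimated counts are nearly all whole (2.34%, 2.33% and 2.39% of non-zero values in treated KO, KO and WT were not) and were rounded. Since 50.0%, 54.7% and 55.2% of low values were 1, they were treated as reads not collapsed to molecules, and divided by 3.16, 2.76 and 2.73 to estimate molecules.

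Reads were summed over rod bipolar cells with Python 3.11.15 and numpy 2.4.6. Ratios of CPM have exact conditional binomial 95% intervals on estimated molecules (scipy 1.17.1). The calculation was run on simulated Poisson counts. Those hold no spread between cells and no error in the divisor, so they do not check the intervals for these data. Genes were compared with at least 30 molecules in the higher library. Named genes were the 12 highest and 12 lowest ratios past the 2-fold rule (5 each for treated KO against WT), leaving out the cell-defining genes, other classes' markers, mitochondrial, ribosomal, crystallin, haemoglobin and sex-linked genes, unnamed gene models, and genes at under 1/5 of their level in Müller, rod or amacrine barcodes. No doublet caller was run, and cells with other classes' markers were left out as an alternative. The members and lists were chosen with earlier results of these data known. Figures were drawn with matplotlib 3.10.9. Some genes of the lists are counted but not reported by name here.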

Additional observations from a re-analysis of the deposited data

How the results depend on the processing

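The hypoxia list had 20 to 22 genes higher in KO than in WT (median log2 ratio 0.88 to 1.04) and 15 to 18 lower in treated KO than in KO (-0.78 to -0.68) under every alternative run, and the metallothionein medians stayed at 1.41 to 1.48 and -1.45 to -1.38. Per 100 Müller barcodes, thinned cells numbered 233.8, 135.9 and 114.4 in treated KO, KO and WT. Counts past the 2-fold rule moved. For KO over WT, 263 higher became 90 with thinned cells, 114 without deep cells, 87 without cells holding 3 markers of another class, 174 with the mean of cells, 634 with reads taken as molecules, and 401 or 102 with at least 10 or 100 molecules. The 86 lower became 30, 46, 53, 57, 270, 148 and 35 in the same order of settings. For treated KO over KO, 43 higher became 25 thinned, 187 with reads as molecules and 22 with at least 100 molecules, and 206 lower became 84 thinned, 107 without deep cells, 93 without marker-holding cells, 515 with reads as molecules and 93 with at least 100 molecules. For treated KO over WT, 42 higher became 64 with at least 4 of the 6 genes, 9 thinned, 15 without deep cells, 4 without marker-holding cells, 23 with the mean of cells, 205 with reads as molecules, and 75 or 7 with at least 10 or 100 molecules. The 67 lower became 12, 19, 13, 27, 250, 141 and 25 from thinning on.

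Directions turned for genes held by few cells. Without marker-holding cells the KO-to-WT ratio was 1.01 for Ccdc152, 1.34 for Ltbp4, 1.16 for Ptprb and 1.53 for S100b, which was at 1.56 thinned and 1.54 without deep cells. Treated-to-KO and treated-to-WT ratios of Pvalb were 0 under all 3 of these settings. The treated-to-WT ratio was 0 for Nrn1 thinned and without deep cells, 0 for Rgs4 without deep or marker-holding cells, 0 for Fxyd7 thinned and without marker-holding cells and 0.205 without deep cells, 1.64 for Igfbp3 without deep cells and 2.27 for Mgp without marker-holding cells. The cause was not tested. No paired analysis was possible because each group is 1 library. Depth limits genes under 30 molecules, which were not compared.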

Other observations

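Outside the lists, 4 genes lower in KO rod bipolar cells were chosen after their values were seen. Plrg1, a splicing factor, was at 87.9 CPM in treated KO, 39.5 in KO and 124 in WT cells, a KO-to-WT ratio of 0.318 (0.262 to 0.385). Adamts5, an extracellular protease, was at 239, 116 and 229.9, and Rnf5, a ubiquitin ligase of the endoplasmic reticulum, at 47.2, 20.7 and 46.5. Rph3a, a synaptic vesicle protein, was at 91.7, 44.7 and 72.2. In each of these 4 genes KO cells stood lowest. Rnf5 was lowest in KO in the other classes too, at 44.3, 18.0 and 41.8 in other ON bipolar barcodes. In Müller barcodes it was at 58.7, 23.9 and 61.8, in rods at 53.0, 21.5 and 48.2 and in amacrine barcodes at 49.1, 15.3 and 35.3. In other ON bipolar barcodes Plrg1 was at 28.7, 28.1 and 35.3, Adamts5 at 7.33, 7.27 and 7.21 and Rph3a at 3.70, 3.27 and 6.68. Plrg1 and Adamts5 were lowest in KO in Müller barcodes too, at 22.8, 18.3 and 23.3 and at 185, 131 and 156. Rph3a was highest in KO in rods, at 11.1, 28.9 and 4.57, and was at 141, 204 and 225 in amacrine barcodes. Of the KO reads of Rph3a in rod bipolar cells, 28.2% were in 5 cells.

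Higher in KO, and also chosen after their values were seen, were Mif, a cytokine gene, at 1314, 2278 and 1161 CPM in treated KO, KO and WT cells, and its near-identical copy Mif-ps at 106, 396 and 97.3, between which reads may be split. Endou, an endoribonuclease, was at 10.2, 51.8 and 8.64, and Stc1, a secreted hormone, at 0.436, 12.6 and 1.80. These genes were highest in KO in other ON bipolar barcodes too, with Mif at 1826, 2733 and 1830 and Mif-ps at 123, 445 and 142. There Endou was at 9.74, 51.1 and 12.6 and Stc1 at 2.34, 23.3 and 1.26. Mif and Mif-ps were also highest in KO in Müller, rod and amacrine barcodes.

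Among 1642 genes of sufficient level, variance over mean between cells of 1 library, taken as the lowest of the 3 libraries, was highest for Malat1 (16.1), Gnb1 (11.8) and Pde6g (9.08), against a median of 1.70. This order leaves out genes that the naming rule excludes, 13 of which ranked above the last of the 10 genes kept. Pde6g, Rcvrn and Guca1a, the last at 7.27, are photoreceptor genes, and Gnb1 encodes the rod transducin beta subunit. Pcp2, a gene of the rod bipolar cells themselves, was at 6.09 and Mt1 at 4.18.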
